A study of Mus musculus with 20 samples.

Results

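Immune cells that enter a tumor leave their transcripts in the RNA of the whole tissue. Of the 45706 genes counted in the study, 42 markers of such cells were followed here, chosen by name and grouped by the cell class they mark. These markers and all further lists were chosen with earlier results of these data known. Ptprc marks all leukocytes, 17 genes mark macrophages, Csf3r granulocytes, 9 genes T cells, 6 genes natural killer (NK) and cytotoxic cells, 4 genes B cells, Cpa3 mast cells and 3 genes dendritic cells. RNA was sequenced from snap-frozen breast tumors of 18-week-old PyMT mice on the C57BL/6N background, 4 of control and 4 of MMTV-cre;Ctsd-/- genotype. All of these mice carried the polyoma middle T oncogene (PyMT) under the MMTV promoter, and the control tumors are labelled wild type. Across the study, control mice had intact (+/+) or floxed (+/fl or fl/fl) Ctsd alleles, and which of these the 4 control tumors carried is not given in the sources used here. The MMTV promoter also drives the Cre recombinase that deletes Ctsd, the gene of the lysosomal aspartic protease cathepsin D, in mammary epithelium; recombination in leukocytes was not measured here. PyMT tumor cells in culture were the second material, with 3 cultures of each genotype, Ctsd+/+ and Ctsd-/-, kept in medium with 1% fetal calf serum either for 10 days (named 1% FCS) or for 12 weeks (named 1% FCS LT). Each genotype of cells came from 1 mouse, so that the cell line and the genotype cannot be told apart, and tests among cultures measure the spread between cultures alone.

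Macrophages are recruited into mammary tumors through the receptor for colony-stimulating factor 1 and carry pattern recognition and Fc receptors, complement C1q and lysosomal enzymes. Cytotoxic T cells and NK cells kill through granules that hold perforin and granzymes. B cells and plasma cells make antibodies, mast cells store proteases and dendritic cells present antigen. In whole tissue, fewer cells of a class and less RNA per cell cannot be told apart. Counts on genes were 49725437 to 64291587 per tumor and 33622831 to 40239762 per cell sample. Levels are given as CPM, the counts relative to the scaled library size, which do not correct for transcript length. Ctsd itself lay between 1781 and 2617 CPM in control tumors and between 360.2 and 1295 CPM in MMTV-cre;Ctsd-/- tumors, without overlap. Its log2 fold change (MMTV-cre;Ctsd-/- minus control) was -1.25 (SE 0.380, edgeR p adjusted over all genes = 0.463). The deleted gene thus did not reach an adjusted p under 0.05 either. The summed level of 11 epithelial genes was 6593 to 10262 CPM in control and 6195 to 7693 CPM in MMTV-cre;Ctsd-/- tumors. The control tumors went through 1 sequencing run and the MMTV-cre;Ctsd-/- tumors through a different one, and genotype and run cannot be told apart in any tumor comparison. Control tumor 4 stood apart across 18527 genes, since long transcripts were low in it. The Spearman rho of exon length against the deviation from the other tumors was -0.40 there and -0.20 to 0.26 in the other 7. Across the 41 tested members alone, rho was lowest in MMTV-cre;Ctsd-/- tumor 1 (-0.26), and it was -0.19 in control tumor 4.

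Between the genotypes, most immune markers differed by less than the spread between tumors. Of the 42 members, 41 passed the filter on low counts and Foxp3, the transcription factor of regulatory T cells, did not (0 to 0.166 CPM in all 8 tumors). At the threshold the study set for tumors, an unadjusted p under 0.1, 5 of the 41 were higher in MMTV-cre;Ctsd-/- tumors (Acp5, Cd79a, Jchain, Cpa3 and Clec9a) and 4 were lower (Gzma, Gzmb, Prf1 and Ncr1). Among all 18617 genes tested, 8.44% were higher and 8.27% lower at this threshold, so that 5 and 4 of 41 are near the background. No member reached an adjusted p under 0.05 with edgeR, DESeq2 or limma-voom, as did 0.00537% of all genes with edgeR, and 4 members had an unadjusted edgeR p under 0.05. In what follows, a tumor difference is called where its unadjusted edgeR p is under 0.1, and the p printed is the one adjusted over all genes. The median log2 fold change (FC, MMTV-cre;Ctsd-/- minus control) over the 41 members was -0.10, beside 0.00073 over all genes. Every MMTV-cre;Ctsd-/- tumor lay above every control for Acp5 and below every control for Ncr1, and the groups of the other 39 tested members overlapped. Of all genes tested, 2.26% lay entirely above and 1.89% entirely below the controls. The plot of log2 FC by cell class shows the 41 estimates with their standard errors.

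**Figure D1:**
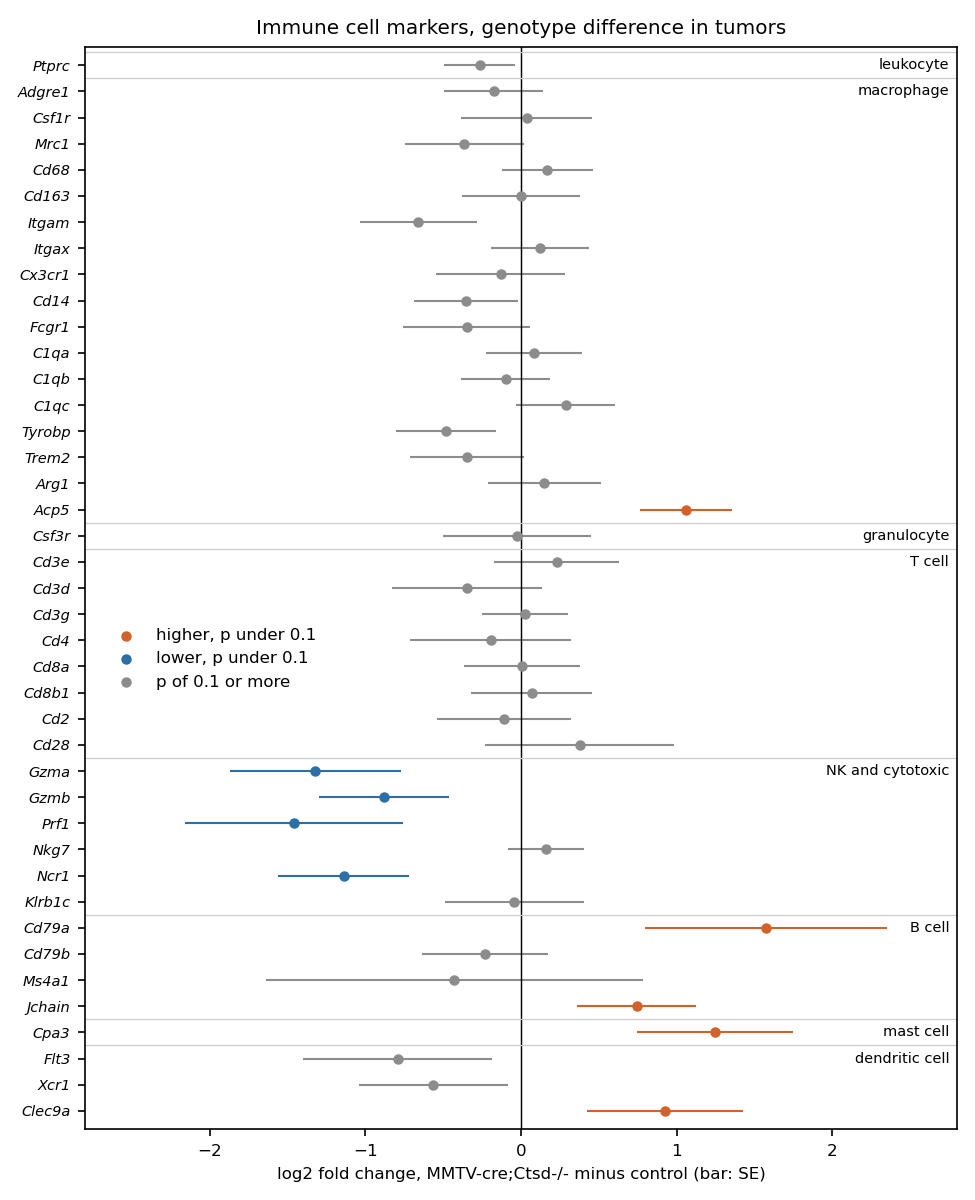
log2 fold change (MMTV-cre;Ctsd-/- minus control, edgeR) of the 41 tested immune markers by cell class, 4 tumors a group; bars are standard errors. Orange points are higher and blue points lower at an unadjusted p under 0.1, gray points are not called: the 4 blue points are all NK and cytotoxic markers, and of the 17 macrophage markers Acp5 alone is called.

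The markers with the highest levels in the tumors were those of macrophages. Per kilobase of exon, the 9 highest members were all on the macrophage list, led by C1qb at 338, Cd14 at 289 and Tyrobp at 158 CPM per kb as means of 8 tumors. The highest member of another class was Nkg7 of cytotoxic granules at 10.1 CPM per kb. Among T cell members the highest was Cd2, an adhesion receptor, at 1.61 CPM per kb. Neighbours in this order overlapped between tumors, as C1qb spanned 239 to 511 and Cd14 152 to 434 CPM per kb.

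Ptprc, which encodes the pan-leukocyte phosphatase CD45, had 26.6, 35.7, 23.3 and 29.8 CPM in control tumors 1 to 4 and 32.2, 21.6, 23.8 and 18.3 CPM in MMTV-cre;Ctsd-/- tumors 1 to 4. The groups overlapped, and the difference was within the spread between tumors (log2 FC -0.27, SE 0.228, edgeR adjusted p = 0.707). Adgre1, the gene of the macrophage surface protein F4/80, had 26.4, 44.9, 25.7 and 15.6 CPM in control tumors 1 to 4 and 33.9, 20.9, 26.2 and 18.6 CPM in MMTV-cre;Ctsd-/- tumors 1 to 4. Its highest and its lowest value were both in controls (log2 FC -0.18, SE 0.320, edgeR adjusted p = 0.861). C1qb, a chain of the first complement component made by tissue macrophages, had 264, 556, 328 and 375 CPM in control tumors 1 to 4 and 499, 344, 319.6 and 260.0 CPM in MMTV-cre;Ctsd-/- tumors 1 to 4. Its groups overlapped as well (log2 FC -0.10, SE 0.287, edgeR adjusted p = 0.918), and control tumor 2 held the highest level of all 3 genes. Without MMTV-cre;Ctsd-/- tumor 1, the log2 FC of Ptprc was -0.44 (called).

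Control tumor 2 was the highest of all 8 for 9 of the 17 macrophage markers and for 14 of the 42 members. Cd68, a glycoprotein of macrophage lysosomes, had 45.5, 106, 50.7 and 43.6 CPM in control tumors 1 to 4 and 77.7, 59.7, 63.9 and 74.7 CPM in MMTV-cre;Ctsd-/- tumors 1 to 4. With all tumors the groups overlapped (log2 FC 0.17, SE 0.293, edgeR adjusted p = 0.854). Without control tumor 2, every MMTV-cre;Ctsd-/- tumor lay above the remaining controls, with a log2 FC of 0.57 (called). Itgam, the integrin CD11b of myeloid cells, had 9.91, 26.3, 7.16 and 18.6 CPM in control tumors 1 to 4 and 9.58, 8.84, 9.30 and 11.5 CPM in MMTV-cre;Ctsd-/- tumors 1 to 4. Here control tumors 2 and 4 were high and the difference was not called (log2 FC -0.66, SE 0.373, edgeR adjusted p = 0.602). The log2 FC of Itgam was -0.27 (not called) without control tumor 2, -0.82 (called) without control tumor 1 and -0.90 (called) without control tumor 3.

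Tyrobp, the adaptor DAP12 through which Trem2 and other myeloid receptors signal, had 72.3, 130.3, 144 and 145 CPM in control tumors 1 to 4 and 146, 71.4, 69.0 and 65.8 CPM in MMTV-cre;Ctsd-/- tumors 1 to 4. MMTV-cre;Ctsd-/- tumor 1 was level with the 3 high controls, and the remaining 3 were at the level of control tumor 1 (log2 FC -0.48, SE 0.320, edgeR adjusted p = 0.642). Without MMTV-cre;Ctsd-/- tumor 1 its log2 FC was -0.84 (called), and without control tumor 1 it was -0.67 (called). Trem2, the lipid-sensing receptor that pairs with it, ranged from 11.6 to 40.9 CPM with overlapping groups (log2 FC -0.35, SE 0.367, edgeR adjusted p = 0.753). Cd14, the co-receptor for lipopolysaccharide, had 456, 752, 461 and 576 CPM in control tumors 1 to 4 and 479.5, 299.5, 713 and 262 CPM in MMTV-cre;Ctsd-/- tumors 1 to 4. MMTV-cre;Ctsd-/- tumors 2 and 4 were the lowest and tumor 3 was among the highest (log2 FC -0.36, SE 0.335, edgeR adjusted p = 0.731), and without tumor 3 the log2 FC was -0.69 (called). None of these 3 genes was called with all 8 tumors.

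Csf1r, the receptor for colony-stimulating factor 1, had 79.8, 111, 54.9 and 18.6 CPM in control tumors 1 to 4 and 74.8, 70.8, 69.6 and 55.2 CPM in MMTV-cre;Ctsd-/- tumors 1 to 4. Its groups overlapped (log2 FC 0.035, SE 0.423, edgeR adjusted p = 0.985), control tumor 4 held the lowest value, and without that tumor the log2 FC of Csf1r was -0.27. On the annotation, 15.1% of the exon bases of Csf1r overlap Hmgxb3 on the opposite strand, and in tumors the counts do not use strand. Cx3cr1, the fractalkine receptor, ranged over 7.52 to 23.2 CPM and Fcgr1, the high-affinity IgG receptor, over 9.57 to 29.2 CPM. Markers often used for alternatively activated macrophages did not pass the test either. Mrc1, the mannose receptor, spanned 16.4 to 54.8 CPM (log2 FC -0.37, SE 0.383, edgeR adjusted p = 0.753) and Cd163, the scavenger receptor for haemoglobin, spanned 6.27 to 16.9 CPM (log2 FC -0.0018, SE 0.380, edgeR adjusted p = 0.999). Arg1, arginase 1, spanned 48.5 to 176 CPM (log2 FC 0.15, SE 0.360, edgeR adjusted p = 0.896). Itgax, the integrin CD11c, had a log2 FC of 0.12 (edgeR adjusted p = 0.903). C1qa and C1qc, the partner chains of C1qb, had log2 FC of 0.086 (edgeR adjusted p = 0.935) and 0.29 (edgeR adjusted p = 0.767). Over the 17 macrophage markers, 7 estimates were above 0 and 10 below, and the median was -0.10 (0.14 without control tumor 2). Called were 1 higher and 0 lower, and 1 of 17 is near the background. Among all genes tested, 8.44% were called higher and 8.27% lower. Of these 17, 1 had an unadjusted edgeR p under 0.05, and DESeq2 called 1 higher and 1 lower.

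**Figure D2:**
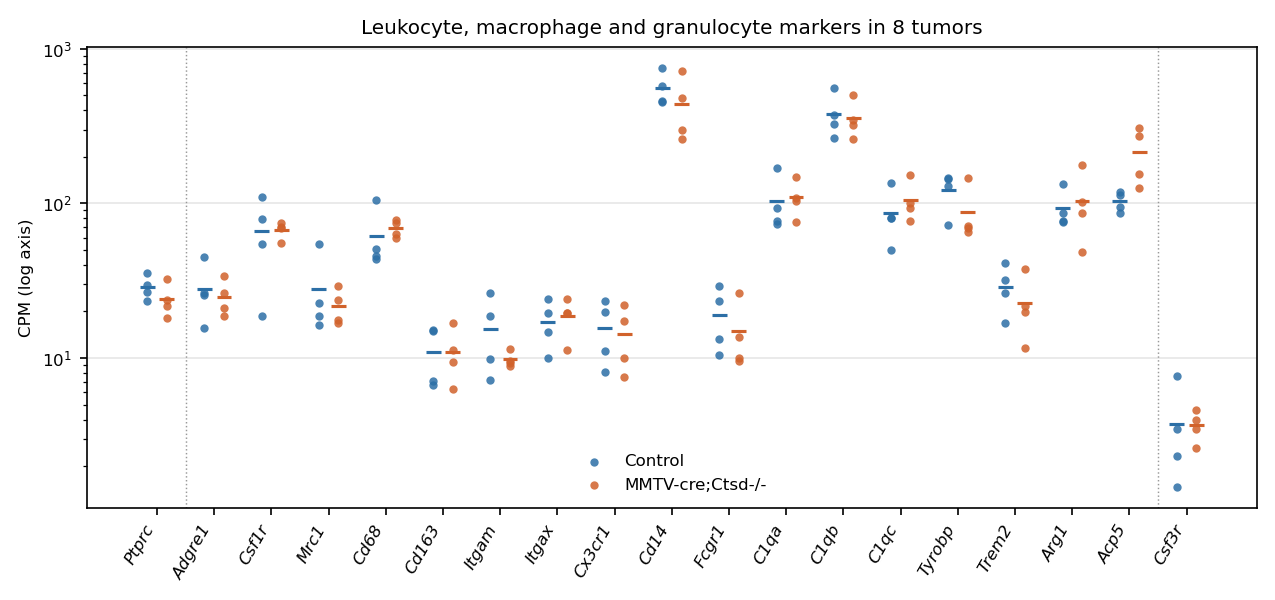
CPM on a log axis of Ptprc, the 17 macrophage markers and Csf3r in each tumor (blue, 4 control; orange, 4 MMTV-cre;Ctsd-/-); short lines are group means. Acp5 is the gene whose MMTV-cre;Ctsd-/- tumors, 126 to 308 CPM, all lie above the controls, 86.1 to 118 CPM; the points of the other genes overlap.

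Acp5 was the 1 macrophage marker called between the genotypes of tumors. It encodes tartrate-resistant acid phosphatase, a lysosomal enzyme of osteoclasts and activated macrophages, and lies on chromosome 9 from 22126727 to 22135711 (GRCm38, minus strand). Acp5 had 95.2, 118, 86.1 and 113 CPM in control tumors 1 to 4 and 154, 126, 272 and 308 CPM in MMTV-cre;Ctsd-/- tumors 1 to 4. Each MMTV-cre;Ctsd-/- tumor was above each control, and tumors 3 and 4 were the highest. The means were 103 ± 15.1 CPM in control and 215 ± 88.5 CPM in MMTV-cre;Ctsd-/- tumors (SD, n = 4 each), and the level was 2.08-fold higher in the fit (log2 FC 1.06, SE 0.298, edgeR adjusted p = 0.416). Leaving out any 1 tumor kept the log2 FC of Acp5 within 0.84 to 1.24. The summed level of 10 white adipocyte genes, among them Lipe, Lep and Pnpla2, was 1302, 3821, 894 and 5992 CPM in control tumors 1 to 4 and 8821, 4094, 13118 and 27109 CPM in MMTV-cre;Ctsd-/- tumors 1 to 4. The 2 tumors highest in Acp5 were thus the 2 highest in adipocyte genes. With the adipocyte level as a covariate the log2 FC of Acp5 was 0.072 (not called), and without these 2 tumors it was 0.44 (not called). Leaving out the 2 tumors highest in Acp5 lowers its estimate in any case. MMTV-cre;Ctsd-/- tumors 1 and 2, at 154 and 126 CPM, were still above every control. The adipocyte level itself differed between the genotypes, so that the covariate and the genotype are only partly separable.

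The promoters of Acp5 and Cd68 are shown because both genes were called higher in Ctsd-/- tumor cells in culture, where the values follow. In tumors Cd68 was not called. Each window runs from 250 bases before to 50 after a RefSeq start, and 30 of the 42 members had one in the table. Searched on both strands were CACGTG (the E-box of the MiT/TFE factors of lysosomal genes), GAGGAA (the core of PU.1 sites, the ETS factor of myeloid cells), TGTGGT (the core of RUNX sites) and AGGTGTGA (an element of the T-box factors T-bet and Eomes). Capitals mark every match to any of the 4 motifs, on either strand, and no 2 matches in the printed windows overlap.
Acp5, GRCm38.p6, chr9:22135697-22135996, minus strand: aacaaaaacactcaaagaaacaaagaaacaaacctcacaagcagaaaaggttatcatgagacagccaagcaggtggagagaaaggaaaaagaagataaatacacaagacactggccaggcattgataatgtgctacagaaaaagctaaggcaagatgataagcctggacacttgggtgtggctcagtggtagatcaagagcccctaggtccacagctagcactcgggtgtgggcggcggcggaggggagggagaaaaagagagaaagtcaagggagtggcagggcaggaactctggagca
Cd68, GRCm38.p6, chr11:69666121-69666420, minus strand: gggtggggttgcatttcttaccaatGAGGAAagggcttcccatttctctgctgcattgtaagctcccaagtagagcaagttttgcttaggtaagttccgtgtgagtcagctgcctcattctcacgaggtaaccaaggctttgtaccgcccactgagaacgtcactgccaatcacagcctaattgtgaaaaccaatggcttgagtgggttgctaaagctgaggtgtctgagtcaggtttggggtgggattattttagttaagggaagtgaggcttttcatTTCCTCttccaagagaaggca

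CACGTG was in neither window, nor in those of the other two RefSeq starts of Acp5, and 7.15% of all 32851 windows held it. Among the members it was found for Flt3 and Xcr1. GAGGAA was found near both ends of the Cd68 window and in none of Acp5, beside 28.3% of all windows and 16 of the 30 members with a window. These are matches of letters and not measured binding sites, and their absence from a window says nothing of the factors.

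None of the 8 tested T cell members passed the test between the genotypes. Of 17 further T cell genes, given below, 3 were called higher and 0 lower. Cd3e, Cd3d and Cd3g encode the CD3 chains of the T cell receptor complex. Cd3e had 5.20, 3.40, 3.55 and 1.80 CPM in control tumors 1 to 4 and 6.08, 3.41, 4.57 and 2.31 CPM in MMTV-cre;Ctsd-/- tumors 1 to 4. Its groups overlapped (log2 FC 0.23, SE 0.402, edgeR adjusted p = 0.856), and without MMTV-cre;Ctsd-/- tumor 1 the log2 FC was -0.014 (not called). Cd3d spanned 1.01 to 4.06 CPM (log2 FC -0.35, SE 0.482, edgeR adjusted p = 0.813) and Cd3g 2.74 to 3.99 CPM (log2 FC 0.024, SE 0.275, edgeR adjusted p = 0.984). Cd4, the co-receptor of helper T cells, spanned 1.12 to 4.63 CPM (log2 FC -0.20, SE 0.514, edgeR adjusted p = 0.905). Cd8a, a chain of the co-receptor of cytotoxic T cells, spanned 1.08 to 2.70 CPM (log2 FC 0.0060, SE 0.375, edgeR adjusted p = 0.998). Its partner chain Cd8b1 had a log2 FC of 0.068, Cd2 of -0.11 and the co-stimulatory receptor Cd28 of 0.38. Of the 8 tested T cell markers 0 had an edgeR p under 0.05 or under 0.1, and DESeq2 and limma-voom also called 0. Their summed level was 17.2 to 21.3 CPM in control and 14.9 to 23.6 CPM in MMTV-cre;Ctsd-/- tumors. The SE of these estimates was 0.275 to 0.607 on the log2 scale, so that differences of this size were not detectable with 4 tumors a group.

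Genes of the granule proteins granzyme A, granzyme B and perforin and of the NK cell receptor NKp46 were lower in MMTV-cre;Ctsd-/- tumors. Ncr1, which encodes NKp46 and lies on chromosome 7 from 4337724 to 4345164 (GRCm38, plus strand), had 0.844, 1.53, 0.729 and 1.29 CPM in control tumors 1 to 4 and 0.319, 0.507, 0.599 and 0.564 CPM in MMTV-cre;Ctsd-/- tumors 1 to 4. All 4 MMTV-cre;Ctsd-/- tumors were below all 4 controls, and the level was 2.20-fold lower in the fit (log2 FC -1.14, SE 0.421, edgeR adjusted p = 0.544). Ncr1 was called under all 16 alternatives, with 21 reads in its lowest tumor.

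Gzma, the tryptase granzyme A, had 4.67, 1.76, 7.10 and 10.3 CPM in control tumors 1 to 4 and 3.37, 0.984, 3.16 and 2.02 CPM in MMTV-cre;Ctsd-/- tumors 1 to 4. The 3 highest values were in controls, and control tumor 2 lay among the MMTV-cre;Ctsd-/- tumors (log2 FC -1.32, SE 0.548, edgeR adjusted p = 0.553). Without control tumor 4, the highest, the log2 FC of Gzma was -0.92 (not called). Gzmb, granzyme B, had 14.3, 9.46, 9.63 and 10.3 CPM in control tumors 1 to 4 and 5.91, 3.38, 11.5 and 2.97 CPM in MMTV-cre;Ctsd-/- tumors 1 to 4. MMTV-cre;Ctsd-/- tumors 1, 2 and 4 were below every control and tumor 3 was above 3 of them (log2 FC -0.88, SE 0.418, edgeR adjusted p = 0.569). Without tumor 3 the log2 FC of Gzmb was -1.42 (called), without control tumor 1 it was -0.72 (not called), and without MMTV-cre;Ctsd-/- tumor 1, 2 or 4 it was -0.86 (not called), -0.69 (not called) and -0.66 (not called), respectively.

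Prf1, perforin, had 1.94, 2.08, 0.530 and 0.152 CPM in control tumors 1 to 4 and 0.334, 0.40, 0.569 and 0.415 CPM in MMTV-cre;Ctsd-/- tumors 1 to 4. Control tumors 1 and 2 were high, and control tumors 3 and 4 were within or below the MMTV-cre;Ctsd-/- range (log2 FC -1.46, SE 0.701, edgeR adjusted p = 0.569). Without control tumor 1 the log2 FC of Prf1 was -1.11 (not called), and without control tumor 2 it was -1.04 (not called). Without MMTV-cre;Ctsd-/- tumor 1, 2 or 4 it was -1.34 (not called), -1.43 (not called) and -1.44 (not called), respectively.

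Nkg7 and Klrb1c, the other two members of this class, were not called. Nkg7, a membrane protein of cytotoxic granules, had 8.68, 8.40, 9.50 and 8.32 CPM in control tumors 1 to 4 and 14, 8.70, 8.54 and 7.77 CPM in MMTV-cre;Ctsd-/- tumors 1 to 4. MMTV-cre;Ctsd-/- tumor 1 was the highest (log2 FC 0.16, SE 0.247, edgeR adjusted p = 0.834), and without it the log2 FC was -0.064 (not called). Klrb1c, the gene of the NK1.1 antigen, had 2.08, 2.27, 2.83 and 1.70 CPM in control tumors 1 to 4 and 1.97, 0.753, 3.58 and 2.32 CPM in MMTV-cre;Ctsd-/- tumors 1 to 4, with both its extremes in the MMTV-cre;Ctsd-/- group (log2 FC -0.043, SE 0.446, edgeR adjusted p = 0.982). The median log2 FC of the 6 members was -1.01, and DESeq2 called 4 of them lower and limma-voom 3. In a further list of 10 NK and cytotoxic genes, among them Klrk1, Klrd1, Eomes and Ccl5, 9 were tested, with 2 estimates above 0 and 7 below. None of these 9 had an unadjusted edgeR p under 0.1, and their median was -0.17.

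**Figure D3:**
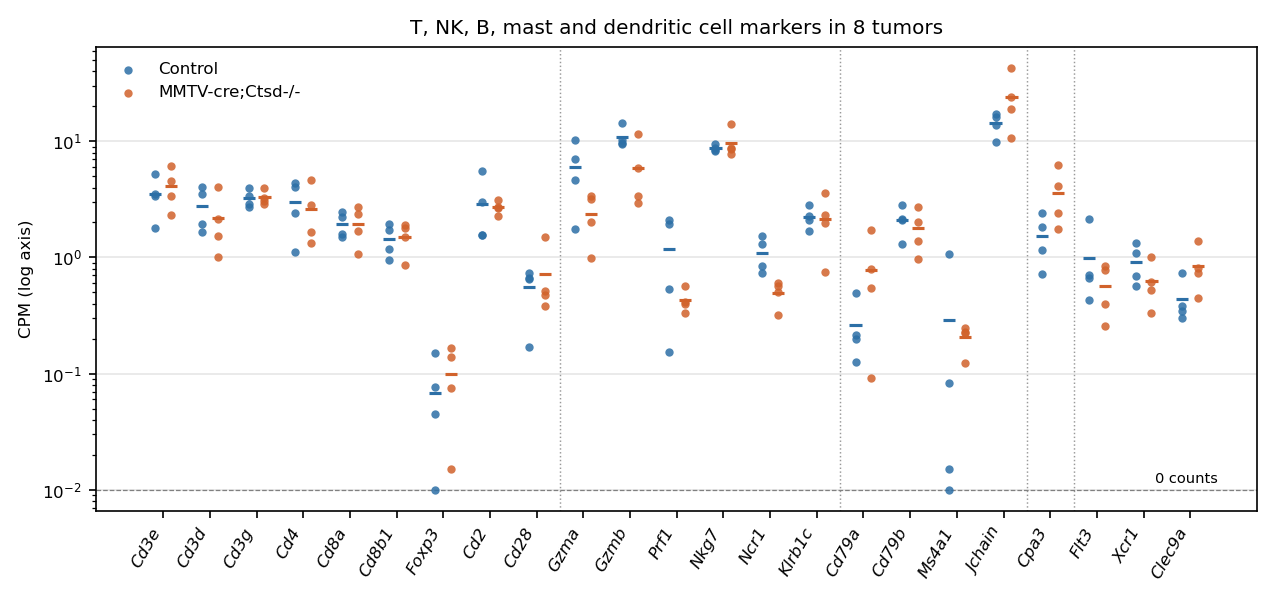
CPM on a log axis of the T, NK and cytotoxic, B, mast and dendritic cell markers in each tumor (blue, 4 control; orange, 4 MMTV-cre;Ctsd-/-); short lines are group means, and values of 0 are drawn at the dashed line. Ncr1 is the gene without overlap, 0.729 to 1.53 CPM in control and 0.319 to 0.599 CPM in MMTV-cre;Ctsd-/- tumors.

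The promoter windows of the 4 lower genes are shown because all 4 are on the NK and cytotoxic list and were called in 1 direction. Capitals mark matches to the same 4 motifs.
Gzma, GRCm38.p6, chr13:113100932-113101231, minus strand: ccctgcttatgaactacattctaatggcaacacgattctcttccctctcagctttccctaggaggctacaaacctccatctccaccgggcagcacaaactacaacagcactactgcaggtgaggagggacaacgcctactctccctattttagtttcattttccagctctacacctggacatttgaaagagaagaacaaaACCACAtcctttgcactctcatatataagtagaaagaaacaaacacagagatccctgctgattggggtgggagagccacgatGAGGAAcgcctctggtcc
Gzmb, GRCm38.p6, chr14:56262285-56262584, minus strand: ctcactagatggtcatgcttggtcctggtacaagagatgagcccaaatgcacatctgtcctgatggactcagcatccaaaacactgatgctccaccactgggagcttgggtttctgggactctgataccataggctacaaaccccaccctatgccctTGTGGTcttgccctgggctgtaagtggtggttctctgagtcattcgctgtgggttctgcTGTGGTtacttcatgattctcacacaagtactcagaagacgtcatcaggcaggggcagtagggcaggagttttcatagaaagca
Prf1, GRCm38.p6, chr10:61297586-61297885, plus strand: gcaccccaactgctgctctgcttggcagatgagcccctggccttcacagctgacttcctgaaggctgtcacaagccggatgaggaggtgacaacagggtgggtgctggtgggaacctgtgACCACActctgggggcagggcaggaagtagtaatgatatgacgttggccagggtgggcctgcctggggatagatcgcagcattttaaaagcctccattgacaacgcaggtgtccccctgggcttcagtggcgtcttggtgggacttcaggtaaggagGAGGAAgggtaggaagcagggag
Ncr1, GRCm38.p6, chr7:4337474-4337773, plus strand: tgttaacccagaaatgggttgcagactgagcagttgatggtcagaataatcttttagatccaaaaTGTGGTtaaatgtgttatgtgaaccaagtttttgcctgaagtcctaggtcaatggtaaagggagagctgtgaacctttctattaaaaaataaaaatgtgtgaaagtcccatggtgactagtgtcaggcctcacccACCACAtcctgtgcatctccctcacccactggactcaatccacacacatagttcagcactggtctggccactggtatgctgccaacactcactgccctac

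TGTGGT was found in all 4 windows, in Gzma and Prf1 on the other strand, in Gzmb on the gene's strand and in Ncr1 on both. It was also in the windows of Nkg7 and Klrb1c, which were not called, and so in those of all 6 NK and cytotoxic members. Of all windows 16.8% held it, and 10 of the 30 members with a window did. AGGTGTGA was in the window of Nkg7 alone among the members, beside 1.28% of all windows.

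The 4 B cell members did not all have the same sign. Cd79a, a signalling chain of the B cell receptor, had 0.498, 0.216, 0.199 and 0.127 CPM in control tumors 1 to 4 and 0.547, 0.0922, 1.71 and 0.796 CPM in MMTV-cre;Ctsd-/- tumors 1 to 4. MMTV-cre;Ctsd-/- tumor 3 held the highest and tumor 2 the lowest value (log2 FC 1.57, SE 0.777, edgeR adjusted p = 0.577). With the adipocyte level as a covariate the log2 FC of Cd79a was 0.12 (not called), without both tumors highest in adipocyte genes it was 0.29 (not called), and with limma-voom it was 1.08 (not called). Without tumor 3 the log2 FC of Cd79a was 0.86 (not called), and without tumor 4 it was 1.57 (not called). Without control tumor 2, 3 or 4 it was 1.49 (not called), 1.46 (not called) and 1.38 (not called), respectively. Its partner chain Cd79b spanned 0.969 to 2.83 CPM with overlapping groups (log2 FC -0.23, SE 0.407, edgeR adjusted p = 0.856). Ms4a1, the B cell antigen CD20, had 0.0151, 0, 0.0829 and 1.07 CPM in control tumors 1 to 4 and 0.228, 0.123, 0.225 and 0.249 CPM in MMTV-cre;Ctsd-/- tumors 1 to 4. Control tumor 4 was far above the rest (log2 FC -0.43, SE 1.21, edgeR adjusted p = 0.915), and without it the log2 FC of Ms4a1 was 2.61, of the opposite sign.

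Jchain, the joining chain of secreted IgA and IgM and a product of plasma cells, had 9.95, 13.9, 16.3 and 17.2 CPM in control tumors 1 to 4 and 23.8, 10.7, 42.7 and 18.8 CPM in MMTV-cre;Ctsd-/- tumors 1 to 4. The groups overlapped, with MMTV-cre;Ctsd-/- tumor 3 far above the rest (log2 FC 0.74, SE 0.380, edgeR adjusted p = 0.582). Without that tumor the log2 FC of Jchain was 0.31 (not called). With the adipocyte covariate it was 0.15 (not called), without both tumors highest in adipocyte genes 0.27 (not called), and with limma-voom 0.62 (not called). It was 0.75 (not called) without MMTV-cre;Ctsd-/- tumor 1 and 0.60 (not called) and 0.73 (not called) without control tumor 1 or 2. In the further list of 12 B and plasma cell genes 2 were higher, the immunoglobulin chains Igkc (log2 FC 1.26, adjusted p = 0.534) and Ighm (log2 FC 1.28, adjusted p = 0.561). None of the 12 was lower, and the median was 0.44. Igkc spanned 48.0 to 57.6 CPM in control and 51.0 to 276 CPM in MMTV-cre;Ctsd-/- tumors.

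Cpa3, the carboxypeptidase of mast cell granules, had 0.724, 2.39, 1.16 and 1.83 CPM in control tumors 1 to 4 and 6.20, 2.41, 4.12 and 1.74 CPM in MMTV-cre;Ctsd-/- tumors 1 to 4. MMTV-cre;Ctsd-/- tumors 1 and 3 were well above every control, and tumors 2 and 4 were within or next to the control range (log2 FC 1.25, SE 0.499, edgeR adjusted p = 0.544). Without tumor 1 the log2 FC of Cpa3 was 0.86 (not called). In a further list of 8 mast cell genes all 7 tested had estimates above 0, with a median of 0.72. Called higher were Gata2, a transcription factor (log2 FC 1.59, adjusted p = 0.544), and Tpsb2, a tryptase (log2 FC 0.96, adjusted p = 0.566).

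Clec9a, a receptor for dead cell debris on cross-presenting dendritic cells, had 0.302, 0.741, 0.348 and 0.380 CPM in control tumors 1 to 4 and 0.729, 0.446, 0.809 and 1.39 CPM in MMTV-cre;Ctsd-/- tumors 1 to 4. Its groups overlapped (log2 FC 0.92, SE 0.50, edgeR adjusted p = 0.592), and the call was kept without control tumor 2 or MMTV-cre;Ctsd-/- tumor 2 and lost without any other single tumor. With MMTV-cre;Ctsd-/- tumor 4 left out, the log2 FC of Clec9a was 0.57 (not called). The call was also lost with the adipocyte covariate (-0.20, of the opposite sign), without both tumors highest in adipocyte genes (0.41), with limma-voom (0.87), with no filter (0.94) and with the counts of the opposite strand (0.57). Xcr1, a chemokine receptor of the same cells, had a log2 FC of -0.56 (edgeR adjusted p = 0.705). Flt3, a receptor of their precursors, had a log2 FC of -0.79 (edgeR adjusted p = 0.684), so that the 3 dendritic cell members did not share a sign. Csf3r, the receptor of granulocyte colony-stimulating factor, spanned 1.47 to 7.66 CPM (log2 FC -0.025, SE 0.476, edgeR adjusted p = 0.991).

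Ratios to Ptprc compared lineages within each tumor, relative to the leukocyte marker. For Adgre1 the log2 ratio to Ptprc was -0.011, 0.33, 0.14 and -0.93 in control tumors 1 to 4 and 0.073, -0.048, 0.14 and 0.029 in MMTV-cre;Ctsd-/- tumors 1 to 4. The MMTV-cre;Ctsd-/- values were close together and control tumor 4 was low. The difference of 0.17 had p = 0.857 before and after adjustment over the 3 ratios, in a two-sided exact permutation test over 70 splits, and it was -0.11 without control tumor 4. The Cd3e ratio differed by 0.52 (exact permutation p = 0.286, adjusted over the 3 ratios 0.514). The Ms4a1 ratio differed by 1.25 (exact permutation p = 0.343, adjusted 0.514). Without control tumor 4 it differed by 2.33, with an exact permutation p = 0.0286, the smallest possible, and 0.0857 after adjustment over the 3 ratios. With a prior count of 0.5 the Ms4a1 ratio differed by 1.94. With 4 tumors against 4 the smallest p this test can give is 0.0286.

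Further immune genes, 93 in 8 lists, were examined in the same fit. The lists were drawn from general knowledge with earlier results of these data known, and are not independent support. Of 90 tested, 9 were higher and 1 lower at p under 0.1, with a median log2 FC of 0.013. Among all genes tested, 8.44% were higher and 8.27% lower at this threshold. Among 10 pan-leukocyte genes 0 were called, with 0 at an unadjusted edgeR p under 0.05, and the median was -0.081. Of 19 macrophage and monocyte genes, Cd86, a co-stimulatory ligand, was lower (log2 FC -0.91, adjusted p = 0.550) and Csf2rb, a cytokine receptor chain, was higher (log2 FC 0.78, adjusted p = 0.578), with a median of 0.0081. Of 17 T cell genes, the receptor chains Cd247 (log2 FC 1.00, adjusted p = 0.544) and Trac (log2 FC 0.80, adjusted p = 0.556) and the transcription factor Bcl11b (log2 FC 1.26, adjusted p = 0.561) were higher. None of these 17 was lower, and the median was 0.32. Cd247 lay at 0.989 to 1.25 CPM in control and 1.34 to 3.63 CPM in MMTV-cre;Ctsd-/- tumors, without overlap. Of 7 tested granulocyte genes, the protease Mmp9 was higher (log2 FC 1.63, adjusted p = 0.544) and the other 6 estimates were below 0. Of 9 dendritic cell genes 0 were called, and the median was -0.0059.

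Genes of fat and of blood vessels were higher in the same tumors. All 10 white adipocyte genes were higher in MMTV-cre;Ctsd-/- tumors, with log2 FC from 1.80 to 3.78 (Lep, leptin, log2 FC 3.78, adjusted p = 0.369). Of 8 brown adipocyte genes 5 were higher, led by Ucp1 of thermogenic fat (log2 FC 6.17, adjusted p = 0.292). Of 8 endothelial genes 6 were higher, among them Cldn5 (log2 FC 2.44, adjusted p = 0.416), Eng (log2 FC 1.32, adjusted p = 0.513) and Tek (log2 FC 1.22, adjusted p = 0.521). Their summed level was 130.0, 146, 68.0 and 69.1 CPM in control tumors 1 to 4 and 96.1, 145, 403 and 364 CPM in MMTV-cre;Ctsd-/- tumors 1 to 4. Of 8 fibroblast genes Dpt (log2 FC 1.03, adjusted p = 0.566) and Pdgfra (log2 FC 0.82, adjusted p = 0.578) were higher, and of 11 epithelial genes 0 were called. Of 5 tested lymph node genes, Madcam1 was higher (log2 FC 4.00, adjusted p = 0.381) and Ccl21a, which has near-identical copies that can share its reads, was lower (log2 FC -2.74, adjusted p = 0.544). The lymph node list summed to 9.87 to 46.0 CPM in control and 2.12 to 18.8 CPM in MMTV-cre;Ctsd-/- tumors. The white adipocyte genes summed to 894 to 5992 CPM in control and 4094 to 27109 CPM in MMTV-cre;Ctsd-/- tumors. In a fit with the adipocyte level as a covariate, this level and the genotype are thus only partly separable. A call lost there does not measure the part of fat, and the share of all genes called there is not given. In that fit, 0 members were called higher and 2 lower. These were Ncr1 with a log2 FC of -1.77 (called) and Itgam, not called without the covariate, with -1.38 (called). Gzma, Gzmb and Prf1 were no longer called but had larger estimates, -1.53, -1.09 and -1.78, and Cpa3 lost its call at 1.10. The estimates of Acp5, Cd79a, Jchain and Clec9a, given above, came close to 0 or turned. Without both MMTV-cre;Ctsd-/- tumors highest in adipocyte genes, 1 member was higher, Cpa3 with 1.5 (called), and 3 were lower, Gzma, Gzmb and Ncr1. The estimate of Prf1 was then -1.68 (not called). The part of the endothelial genes in the differences of the members was not tested.

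In cultured tumor cells most of these markers had few counts or none. Of the 42 members, 26 had at most 3 counts in each of the 12 cell samples, and 8 of these had 0 in all: C1qc, Tyrobp, Cd3g, Cd2, Prf1, Cpa3, Xcr1 and Clec9a. The 26 included all 6 NK and cytotoxic members, 8 of 9 T cell members, Csf3r, Cpa3, Cd79b, Ms4a1, and 2 of the 3 dendritic cell members. They also included 6 of the 17 macrophage members, C1qa, C1qb, C1qc, Tyrobp, Fcgr1 and Cx3cr1. For Tyrobp, whose lowest tumor had 65.8 CPM, the mean tumor level was at least 1152-fold higher than 3 counts in the smallest cell library (0.0916 CPM). For C1qc it was at least 1050.4-fold higher, and for the mast cell gene Cpa3 at least 28.1-fold. C1qb had 1 count in all 12 cell samples together, beside at least 260.0 CPM in each tumor. Another 11 members passed 3 counts in some cell samples: Cd163 reached 55 counts, Ptprc 25, Trem2 16, Cd28 13 and the others at most 12. The plot of tumor against cell levels sets the 42 members side by side.

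**Figure D4:**
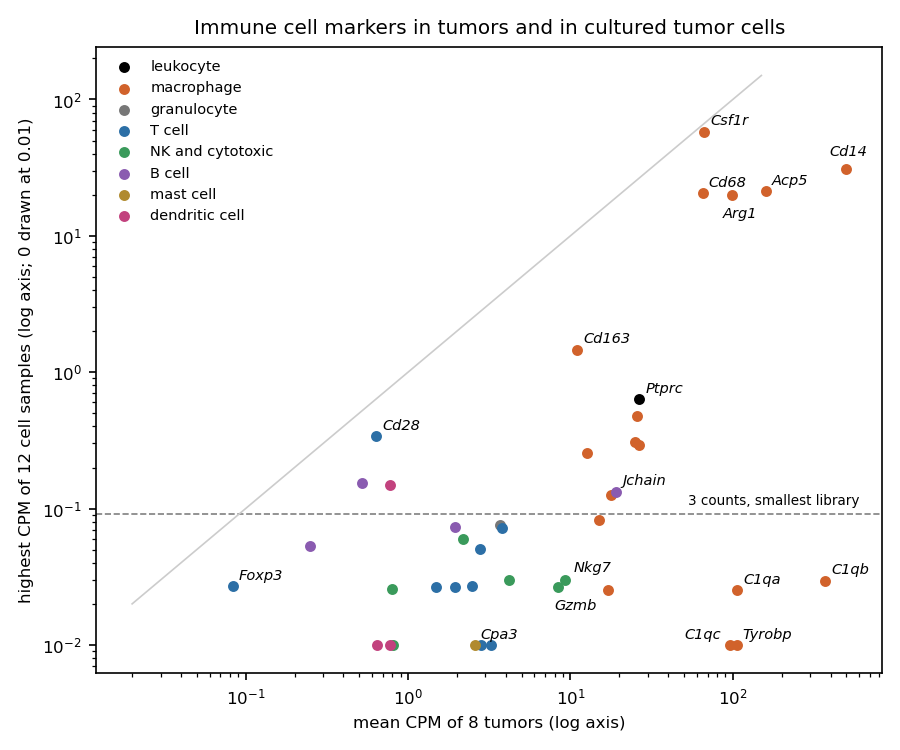
Mean CPM of the 8 tumors (horizontal, log axis) against the highest CPM of the 12 cell samples (vertical, log axis) for the 42 immune markers, colored by cell class; 0 is drawn at 0.01, the dashed line is 3 counts in the smallest cell library and the gray line marks equal levels. Csf1r, Cd14, Acp5, Cd68 and Arg1 stand at the top right, and 26 markers never passed 3 counts in a cell sample.

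The remaining 5 members, Acp5, Cd68, Cd14, Csf1r and Arg1, passed 3 counts in every cell sample. All are on the macrophage list, and they were counted in cells in which C1qa, C1qb, Fcgr1 and Tyrobp had at most 1 count a sample. Cd14 had 12.0 to 31.0 CPM in cells and 262 to 752 CPM in tumors. Csf1r reached 58.2 CPM in cells, within its tumor range of 18.6 to 111 CPM. Tumor and cell libraries were scaled separately and counted with different strand settings, so that these levels are set side by side without a test. With Ptprc and Cd163, 7 members passed the filter on low counts and were tested between genotypes of cells, where a call needed a log2 FC beyond 1 in either direction and an adjusted p under 0.05.

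Of the 7, 3 were called higher in 1% FCS Ctsd-/- cells (Acp5, Cd68 and Ptprc) and 0 lower. At an unadjusted edgeR p under 0.05 there was 1 lower member, DESeq2 called 1 lower and limma-voom 0. In 1% FCS LT 2 were higher (Acp5 and Cd68) and 4 lower (Csf1r, Arg1, Cd163 and Ptprc). The change of the genotype difference with time, tested as an interaction, was called for 4 members. All 4 estimates were negative, so that Ctsd-/- cells were lower relative to Ctsd+/+ cells after 12 weeks than after 10 days. For Csf1r and Arg1 the Ctsd+/+ mean rose, from 6.39 to 55.2 and from 3.84 to 16.4 CPM. The Ctsd-/- means were 5.67 and 5.17 CPM for Csf1r and 5.55 and 5.98 CPM for Arg1. No member had an interaction estimate above 0 at an unadjusted p under 0.05 with any of the 3 tools. Of all 15178 genes tested in cells, 10.3% were called higher and 14.6% lower in 1% FCS, 9.24% and 10.1% in 1% FCS LT, and 11% and 8.12% in the interaction. The 7 are the members with enough counts in these cells, and their share of calls says nothing of the other 35.

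Acp5 was higher in Ctsd-/- cells in both cultures. In 1% FCS it had 34, 31 and 17 counts in Ctsd+/+ cultures 1 to 3 and 871, 610 and 434 in Ctsd-/- cultures 1 to 3. In CPM this was 0.804 ± 0.313 against 16.9 ± 4.19 (SD, n = 3 each), without overlap (log2 FC 4.40, SE 0.464, edgeR adjusted p = 1.5e-05). In 1% FCS LT it had 99, 85 and 273 counts in Ctsd+/+ and 481, 499 and 626 counts in Ctsd-/- cultures, again without overlap (log2 FC 1.73, SE 0.40, edgeR adjusted p = 0.00484). The difference was smaller after 12 weeks (interaction, 1% FCS LT minus 1% FCS, log2 FC -2.67, SE 0.586, edgeR adjusted p = 0.00510). The Ctsd-/- level was 16.9 ± 4.19 CPM in 1% FCS and 13.2 ± 1.83 CPM in 1% FCS LT, and the Ctsd+/+ level was 0.804 ± 0.313 and 3.95 ± 2.58 CPM. Acp5 was thereby called higher in MMTV-cre;Ctsd-/- tumors and in Ctsd-/- cells of both cultures, at unlike thresholds. The tumor call used an unadjusted p under 0.1, and the cell calls an adjusted p under 0.05 and the fold limit. Unlike the cell calls, the tumor call was set beside the adipocyte level. It was lost with that covariate and without the 2 tumors highest in adipocyte genes, which were also the 2 highest in Acp5.

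Cd68 had 130, 73 and 90 counts in Ctsd+/+ and 843, 329 and 249 in Ctsd-/- 1% FCS cultures, without overlap (log2 FC 2.12, SE 0.560, edgeR adjusted p = 0.00830). In 1% FCS LT it had 65, 133 and 208 counts in Ctsd+/+ and 247, 245 and 767 in Ctsd-/- cultures (log2 FC 1.54, SE 0.548, edgeR adjusted p = 0.0424). Ctsd-/- culture 3 was far above the other two of its group, and without it the log2 FC was 0.80 (adjusted p = 0.244). Leaving out Ctsd+/+ culture 1 or 2 of 1% FCS LT also ended this call, with log2 FC of 1.22 and 1.54, as did leaving out culture 2 of either genotype of 1% FCS, with 1.53 and 1.54. Limma-voom (1.46, adjusted p = 0.0660) and edgeR with the culture number as a block (1.46, adjusted p = 0.0600) did not call it either. Unlike Acp5, Cd68 had no called change of its genotype difference with time (interaction, log2 FC -0.58, SE 0.764, edgeR adjusted p = 0.606).

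Csf1r was high in long-term Ctsd+/+ cells. It had 1963, 2046 and 2295 counts in Ctsd+/+ and 111, 268 and 246 in Ctsd-/- 1% FCS LT cultures. In CPM this was 55.2 ± 2.65 against 5.17 ± 2.23 (SD, n = 3 each), without overlap (log2 FC -3.42, SE 0.505, edgeR adjusted p = 2.57e-04). In 1% FCS the counts were 80, 168 and 445 in Ctsd+/+ and 263, 248 and 129 in Ctsd-/- cultures, and the groups overlapped (log2 FC -0.18, SE 0.475, edgeR adjusted p = 0.779). The interaction was called (log2 FC -3.24, SE 0.678, edgeR adjusted p = 0.00386). Arg1 had 737, 636 and 481 counts in Ctsd+/+ and 96, 349 and 275 in Ctsd-/- 1% FCS LT cultures, without overlap (log2 FC -1.45, SE 0.435, edgeR adjusted p = 0.0199). In 1% FCS it had 75, 147 and 183 and 161, 234 and 214 counts, with overlap (log2 FC 0.53, SE 0.438, edgeR adjusted p = 0.342). Without Ctsd+/+ 1% FCS LT culture 1 or 2 the long-term difference of Arg1 was -1.28 (adjusted p = 0.0658) and -1.42 (adjusted p = 0.0505). Its interaction (log2 FC -1.98, SE 0.617, edgeR adjusted p = 0.0305) lost the call without any of 5 single cultures, Ctsd+/+ 1 and Ctsd-/- 2 or 3 of 1% FCS and Ctsd+/+ 1 or 2 of 1% FCS LT.

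Cd163 was low, with 39, 55 and 24 counts in Ctsd+/+ and 14, 2 and 5 in Ctsd-/- 1% FCS LT cultures (log2 FC -2.59, SE 0.832, edgeR adjusted p = 0.0275). Leaving out Ctsd+/+ culture 1 or 2 or Ctsd-/- culture 2 or 3 of 1% FCS LT ended this call, with log2 FC between -2.58 and -2.17. Cd14 had 12.0 to 15.4 CPM in Ctsd+/+ and 21.9 to 24.9 CPM in Ctsd-/- 1% FCS cultures, without overlap. Its difference (log2 FC 0.74, SE 0.154, edgeR adjusted p = 0.00192) was below the fold limit of a call, and in 1% FCS LT the groups overlapped (log2 FC -0.15, SE 0.152, edgeR adjusted p = 0.470). Ptprc had 0, 1 and 0 counts in Ctsd+/+ and 7, 2 and 6 in Ctsd-/- 1% FCS cultures, and 17, 13 and 25 and 3, 6 and 6 in 1% FCS LT. Its calls rest on few counts, the size of its fold change in 1% FCS is not determined, and without Ctsd-/- 1% FCS LT culture 1 the long-term difference was -1.66 (adjusted p = 0.0511).

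Culture 1 of 1% FCS and culture 3 of 1% FCS LT, of both genotypes, were sequenced in other runs than the remaining 8 cell samples. Within the run shared by all groups, 2 cultures a group, the log2 FC of Acp5 was 4.42 in 1% FCS and 2.30 in 1% FCS LT, that of Cd68 1.84 and 1.20, and all 4 were called. In 1% FCS LT, Csf1r (-3.49) and Arg1 (-1.71) were called within that run as well. Not called there were Cd163 in 1% FCS LT (-2.66, adjusted p = 0.0772), Ptprc in 1% FCS (adjusted p = 0.0959) and in 1% FCS LT (adjusted p = 0.0691), and the interaction of Arg1 (adjusted p = 0.0545).

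**Figure D5:**
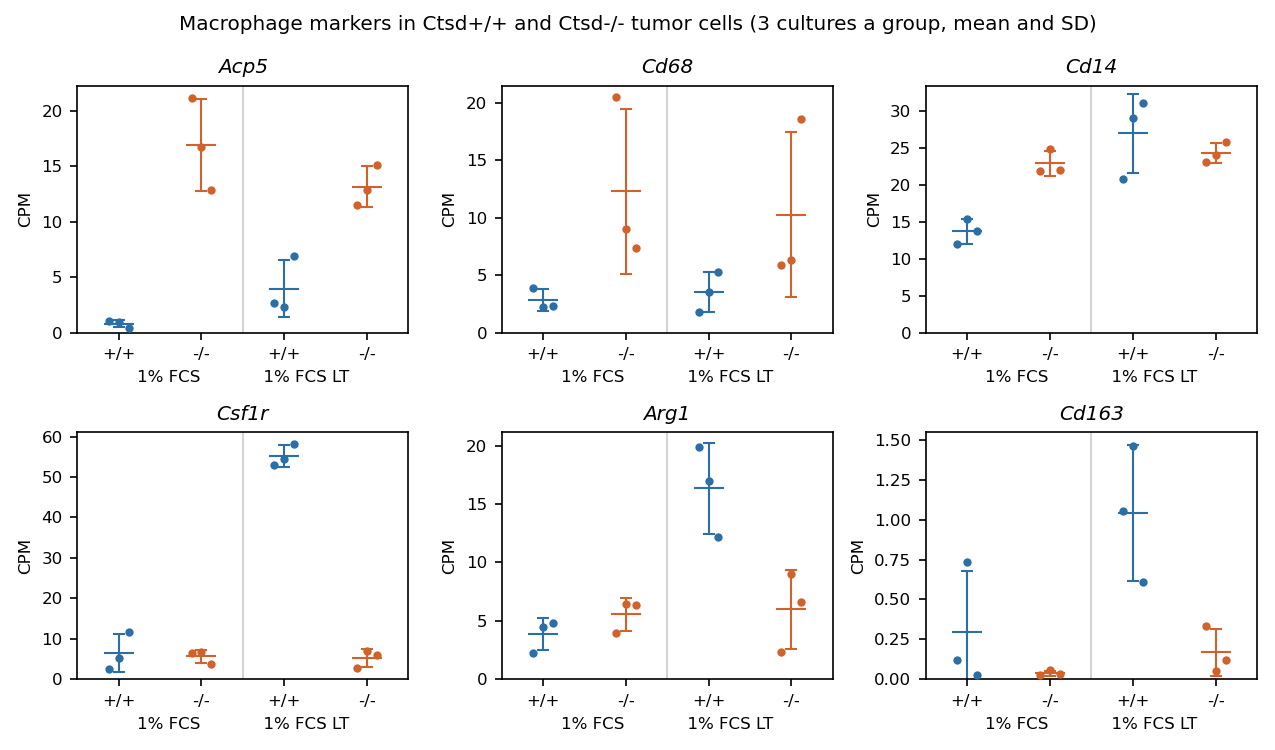
CPM of 6 macrophage markers in Ctsd+/+ (blue) and Ctsd-/- (orange) tumor cells in 1% FCS and 1% FCS LT; points are the 3 cultures of a group, horizontal lines the mean and bars the SD, and each panel has its own axis from 0. Acp5 is higher in Ctsd-/- cells in both cultures, and Csf1r is high in the 3 Ctsd+/+ 1% FCS LT cultures alone.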

How the data were processed

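Per the labels and the methods of the study, reads were trimmed with Trimmomatic and aligned with STAR to the mouse genome (GRCm38/mm10), and the authors deposited STAR's per-gene count table of each sample, unnormalized, in unstranded and 2 stranded columns; the annotation release is not given in the sources used here. Unstranded counts were used for tumors, and for cells those of the column for reads on the strand opposite to the gene. The stranded columns held near-equal shares of the counts in tumors, and the opposite-strand column held most in cells. The opposite-strand alternative in tumors used this same column. Rows that name no gene stayed out of library sizes and tests. Symbols and positions came from GENCODE M21, promoters from RefSeq (GRCm38.p6).

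The 42 members and all lists were chosen with earlier results of these data known, so that no list is independent support. Counts were scaled (TMM), filtered on low counts (filterByExpr) and fitted over all genes with edgeR 4.0.16 (quasi-likelihood, R 4.3.3), separately for tumors and for the 4 cell groups with their interaction; p-values were adjusted by Benjamini-Hochberg over all genes. Tumor calls used an unadjusted p under 0.1, as in the study. Named were all members, Ctsd and up to 3 genes per list with the smallest p under 0.1; other genes appear as list members alone. Ratios to Ptprc were compared by exact permutation. Alternatives were DESeq2 1.42.0, limma-voom 3.58.1, other size factors, no filter, other count columns, a replicate block, an adipocyte covariate, the run shared by the cell groups and leaving out each sample; leaving out the 2 tumors highest in adipocyte genes was added after seeing the data. The scripts were tested on simulated counts. No library was a copy of another. Whether each tumor came from a separate mouse is not stated in the labels, so that p-values measure the spread between these samples. Same-numbered tumors did not deviate together.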

Additional observations from a re-analysis of the deposited data

Results flagged for a closer look

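Of the 84 combinations of a member and a tumor group, 8 held 1 tumor far from the other 3, and about 1 in 20 does so by chance. Control tumor 2 was high for Mrc1 (54.8 CPM), Cd68 (106 CPM) and Flt3 (2.15 CPM) and low for Cd28 (0.17 CPM). MMTV-cre;Ctsd-/- tumor 1 was high for Tyrobp (146 CPM) and for Nkg7 (14 CPM). MMTV-cre;Ctsd-/- tumor 3 was high for Cd28 (1.5 CPM). Control tumor 4 was high for Ms4a1 (1.07 CPM), where the other controls had at most 0.0829 CPM.

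In cultured cells, the genotype difference changed between 1% FCS and 1% FCS LT for 4 members, by the test of the interaction. The change on the log2 scale was -5.34 for Ptprc, -3.24 for Csf1r, -1.98 for Arg1 and -2.67 for Acp5. The value of Ptprc rests on 0, 1 and 0 counts in 1% FCS Ctsd+/+ cells and is not a determined size. For Csf1r and Arg1 the Ctsd+/+ cells differed between the culture times, 6.39 and 55.2 CPM for Csf1r and 3.84 and 16.4 CPM for Arg1, while the Ctsd-/- cells had 5.67 and 5.17 CPM and 5.55 and 5.98 CPM.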

How the results depend on the processing

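Of 565 values of single genes and ratios under alternatives, 476 kept their direction and call, and of 80 class medians 9 changed sign, 5 for T cells, 3 for macrophages and 1 for B cells. The count of members higher in MMTV-cre;Ctsd-/- tumors, 5, became 2 with limma-voom, 0 with the adipocyte covariate and 1 without the 2 tumors highest in adipocyte genes, and 2 to 5 with 1 tumor left out. The count of lower members, 4, became 2 with the covariate (Ncr1 and, not among the 4, Itgam) and 2 to 6 with 1 tumor left out. Gzma, Gzmb and Prf1 lost the call under the covariate with estimates larger than without it. Prf1 was also not called with limma-voom (-1.01), and Itgam was called with DESeq2, no filter or the opposite strand (-0.64 to -0.67). The median of B cell members, 0.26, was 0.85 with limma-voom and 0.0063 to 1.11 with 1 tumor left out, where the NK and cytotoxic median was -1.33 to -0.87 and the dendritic -0.74 to -0.073. The covariate reversed Clec9a (-0.20) and Cd68 (-0.16), and turned Cx3cr1 (0.35), Cd3d (0.069) and the B cell median (-0.12). Leaving out 1 tumor changed the sign of 20 of the 41 tested members in at least 1 case, 0 of them called with all tumors, among them Adgre1 (-0.37 to 0.14), Cd3e (-0.014 to 0.49), Nkg7 (-0.064 to 0.26), Mrc1 (-0.55 to 0.18), Csf3r (-0.29 to 0.60) and Ms4a1 (-0.86 to 2.61), and that of the Adgre1 to Ptprc ratio (-0.11 to 0.32). In cells, the 3 calls in 1% FCS became 6 with no filter and 3 to 5 with 1 culture left out, and the 6 calls in 1% FCS LT 3 to 7. The causes were not tested.

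With the replicate number as a block, 1 member was higher and 3 were lower in tumors (not called were Prf1, Cd79a, Jchain, Cpa3 and Clec9a, with -0.95, 1.20, 0.60, 1.19 and 0.92), the B cell median was 0.90, and 3, 5 and 4 members were called in 1% FCS, 1% FCS LT and the interaction. Over all 18617 genes tested in tumors, 1105 were higher and 711 lower with this block. The deviations of same-numbered tumors correlated by -0.30 to -0.0075, and their numbers were not taken as pairs. Those of same-numbered cultures correlated by 0.10 to 0.36 in 1% FCS and 0.0018 to 0.12 in 1% FCS LT. The main cell fit did not use the culture numbers, and the counts with the block are those above. Of 8 tumors 0 correlated best with its own number, of 6 cultures each 5 did in 1% FCS and 3 in 1% FCS LT. With 4 tumors a group and a median coefficient of variation of 42.1% in control and 40.7% in MMTV-cre;Ctsd-/- tumors, differences within an SE of zero were not detectable.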

Other observations

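C1q is assembled from 3 chains, and the ratio of their transcripts was set beside the members' levels. Per kilobase of exon, the ratio of C1qb to C1qc was 9.42, 7.24, 7.22 and 8.30 in control tumors 1 to 4 and 5.83, 6.02, 6.09 and 6.03 in MMTV-cre;Ctsd-/- tumors 1 to 4, without overlap. It was 1 of 7 ratios between markers of 1 class, was chosen after its values were seen and was not tested. The ratio of C1qb to C1qa, 2.95 to 4.09, overlapped between the groups. The ratio of Csf1r, a long transcript, to Tyrobp, a short one, was lowest in control tumor 4 (0.0147) and 0.0441 to 0.127 in the other 7 tumors. Cd79b to Cd79a, the paired chains of the B cell receptor, ranged from 1.21 to 17.1.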
